A study of Mus musculus with 8 samples.

Results

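The Slc25a genes encode the mitochondrial carrier family, and 93 probe sets for 44 of these genes were taken from 45101 probe sets on an Affymetrix mouse array. A probe set, a group of short probes read as 1 value, was a member if the platform annotation gave it exactly 1 gene symbol and that symbol was Slc25a followed by a number. The 8 samples were total RNA of mouse oocytes at the germinal vesicle (GV) stage, the immature oocyte with an intact nucleus. In 4 samples the GV oocytes had spent 48 h in culture with milrinone, which inhibits the cAMP phosphodiesterase of the oocyte, and in the other 4 they were untreated. The labels name no samples cultured without milrinone, so drug, culture and elapsed time cannot be told apart, and the sources used here do not give strain, age or the number of animals or oocytes per sample. Nothing says that replicates came from separate collections, so p-values measure no more than the spread among these 8 samples, and that spread may be technical.

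Carriers of this family sit mostly in the inner mitochondrial membrane and exchange metabolites between the mitochondrial matrix and the cytosol. The ADP/ATP and phosphate carriers supply the ATP synthase and export its product, and others move carboxylates, amino acids, acylcarnitines, cofactors, iron and glutathione. The proteins are made in the cytosol and pass through the TOM complex, the small TIM chaperones and a carrier translocase of the inner membrane. Fully grown oocytes hold many mitochondria and draw their ATP largely from the oxidation of pyruvate in them.

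No carrier was detected to change in milrinone. Of the 93 member probe sets, 54 were tested, those with deposited values on 3 or 4 of the milrinone arrays and on 3 or 4 of the untreated ones, and they stand for 33 genes. Of these, 0 passed the threshold, an adjusted p of 0.05 in limma, where 19 of all 16288 tested probe sets did (0.117%). The lowest adjusted p of a member was 0.431. At an unadjusted p under 0.05 (limma) there were 6 member probe sets, all with lower values in milrinone, or 11.1% of the 54 against 4.0% of all tested probe sets in that direction. None was higher at that level, against 5.62% of all tested probe sets. The 6 belong to Slc25a3, Slc25a4 (2 probe sets), Slc25a30 (2 probe sets) and Slc25a46. Without untreated 4 the count was 13, of which 12 were lower in milrinone (22.2% of the 54, against 6.38% of all tested probe sets in that direction). Without untreated 1 the count was 7 of the 54, all lower in milrinone, where 4.0% of all tested probe sets were lower at that level.

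Every difference below is milrinone minus untreated on the scale log2(intensity + 16), which understates the change of dim probe sets. The median difference of the 54 member probe sets was -0.10, beside 0.06 for all tested probe sets, and 34 of the 54 lay below 0 (62.96%), beside 38.0% of all. A total of 49 of the 54 members lay within 0.5 of 0, beside 15100 of all 16288 tested probe sets. Within 0.25 of 0 lay 30 members, beside 11479 of all. The median standard error was 0.18, beside 0.17 over all tested probe sets. In 4 member probe sets all milrinone values lay below all untreated values (7.41%, against 2.74% of all tested probe sets), and in 1 they lay above (against 5.06%). The array of untreated replicate 1 weighs on the medians. The 6 members lower at an unadjusted p under 0.05 (limma) all had differences nearer to 0 without it. They ran from -1.36 to -0.33, beside -1.92 to -0.48 with it. The count at that level was not smaller without that array, but such a count also depends on the spread within groups. Without untreated 1 the median was -0.03 for the members and 0.03 for all tested probe sets. Centring the arrays on cytosolic ribosomal protein genes turned the members' median to 0.08 and moved that of all tested probe sets to 0.23.

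**Figure D1:**
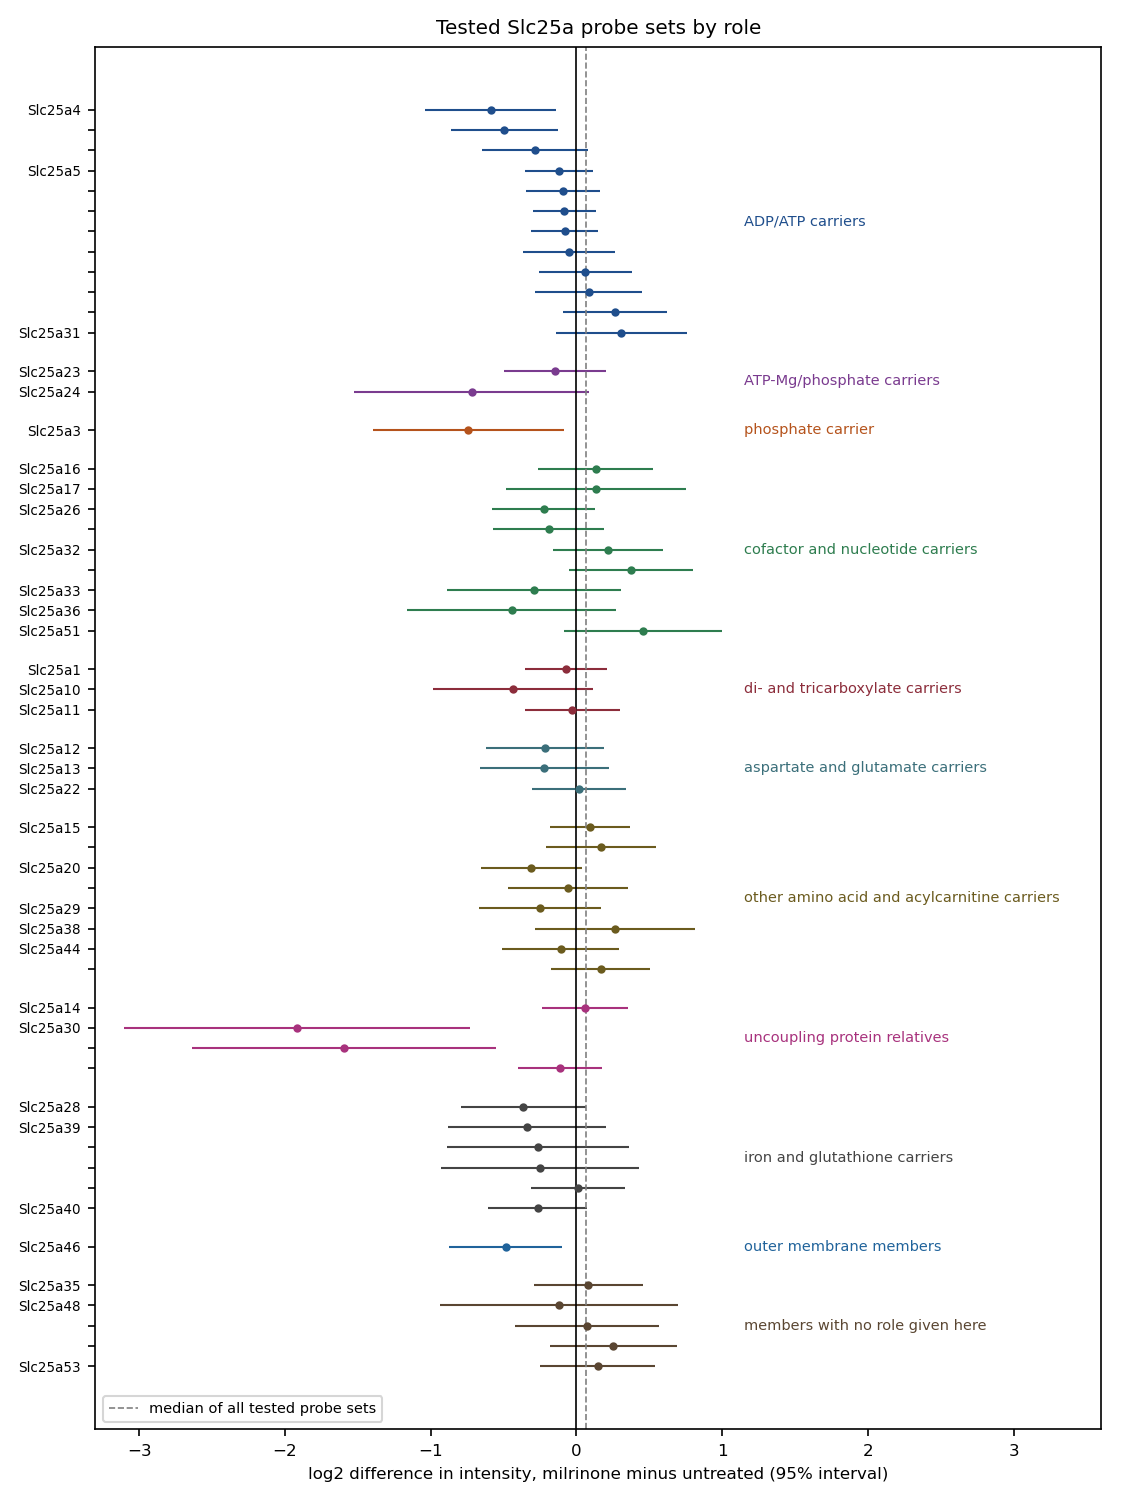
Log2 difference in intensity (milrinone minus untreated, x axis) of the 54 tested Slc25a probe sets, 1 row each and grouped by role, with unlabelled rows belonging to the gene above them. Points are limma estimates, bars are 95% intervals and the dashed line is the median of all tested probe sets (0.06). Rows of Slc25a30 at -1.92 and -1.59 lie farthest from 0. Of the 54 points, 49 lie within 0.5 of 0, beside 15100 of all 16288 tested probe sets.

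Untreated 1 stood apart in the whole table as well, with a correlation of 0.930 (median over the remaining arrays) where the other 7 had 0.966 to 0.980. Markers of granulosa, cumulus and theca cells, the somatic cells around the oocyte, had their largest summed intensity on it, and 15 of 20 such genes with a value had their highest value there by their brightest probe set, the others being Grem1, Has2, Kitl, Ptgs2 and Tnfaip6. Summed over their 45 probe sets, the listed intensities came to 2861 to 4005 on milrinone arrays, whereas untreated 1 had 95932 and untreated 2 to 4 had 21910 to 24634. Of the 21 marker genes on the array, Amhr2, Cyp17a1, Nr5a1, Star and Tnfaip6 had values on untreated arrays only, Tnfaip6 on 1 of them, and Amh had none on any array. By their brightest probe sets, Ptgs2, Has2 and Ptx3 had values on 2 milrinone arrays each, against 1, 2 and 2 untreated arrays. Of the 11 tested probe sets of granulosa, cumulus and theca markers, 4 were among the 19 that passed (limma), against 0.117% of all tested probe sets. At an unadjusted p under 0.05 (limma), 8 of the 11 were lower in milrinone (72.7%, against 4.0% of all). The sums over 19 probe sets of blood, stromal and endothelial markers were 624 to 784 in milrinone, whereas untreated 1 had 8172 and untreated 2 to 4 had 1441 to 2705. The collagens Col3a1 and Col1a2 had 3414 and 2550 on untreated 1 by their brightest probe sets. Of 11 such genes with a value, 5 were highest on untreated 1. Adgre1, Cd68, Hba-a1, Lyz2, Ptprc and Tek were highest on another untreated array. Among 4 tested probe sets on this list, 0 reached an unadjusted p under 0.05 (limma), and the groups of the endothelial markers Kdr and Tek overlapped. All 19 probe sets of oocyte markers, among them Gdf9 and Zp3, had values on all 8 arrays, and 0 of them passed (limma, 0 at an unadjusted p under 0.05). The Actb control probe sets at the 3′ end, divided by those at the 5′ end as a sign of RNA integrity, gave 11.6 to 20.4 in milrinone and 6.87 to 13.1 in untreated samples. The part of other cells and of RNA integrity in the values of the carriers was not tested. In RNA of pooled cells, fewer cells of a type and less RNA per cell cannot be told apart.

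Of the 48 member probe sets with a value on all 8 arrays, 23 had their highest value on untreated 1 (47.92%), beside 15.93% of all such probe sets, and 12 had their lowest value there (25%), beside 39.6%. The ADP/ATP carriers had 8 of 12 such probe sets highest there, all of Slc25a4 and Slc25a5. The iron and glutathione carriers had 5 of 5, all of Slc25a28 and Slc25a39. Probe sets of the same gene are counted separately here. Among cofactor and nucleotide carriers 2 of 9 were highest and 5 of 9 were lowest on that array.

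**Figure D2:**
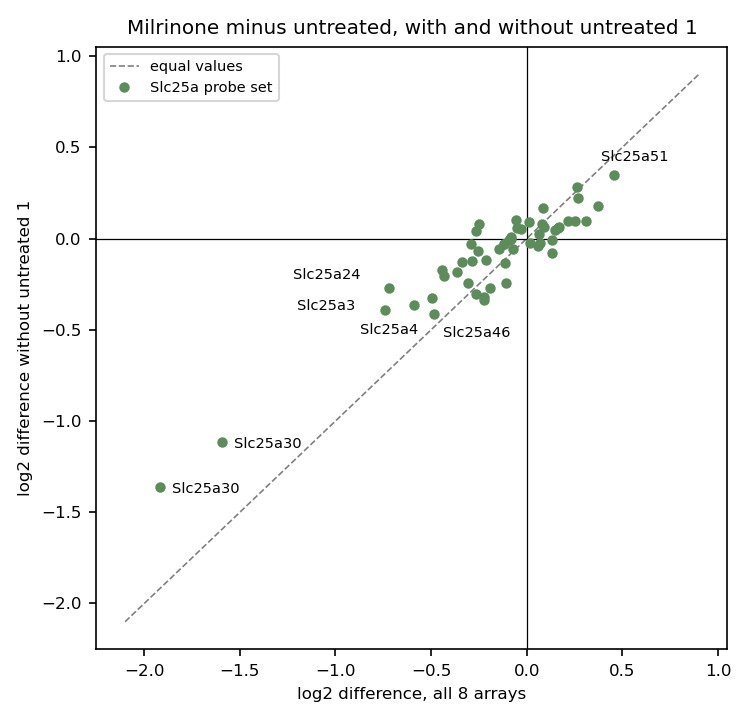
Log2 difference (milrinone minus untreated) of the 54 tested Slc25a probe sets from all 8 arrays (x axis) and without untreated 1 (y axis), with the line of equal values dashed. The probe sets of Slc25a30 lie at -1.36 and -1.11 without that array, beside -1.92 and -1.59 with it, and that of Slc25a3 at -0.39, beside -0.74.

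The ADP/ATP carriers exchange matrix ATP for cytosolic ADP. Mouse has a heart and muscle type (Slc25a4), a type found in most tissues (Slc25a5) and a germ cell type (Slc25a31). For Slc25a4, the probe set 1424562_a_at had 985, 1086, 1147 and 1173 in milrinone samples 1 to 4, against 2633, 1488, 1437 and 1327 in untreated samples 1 to 4. The groups did not overlap, and untreated 1 lay far above the other 3 of its group. The difference was -0.59 (SE 0.20, limma adjusted p = 0.472), and -0.37 without untreated 1. A second probe set of Slc25a4, 1455069_x_at, averaged 1086 ± 42.7 in milrinone and 1572 ± 410 in untreated samples (SD, n = 4 each), again without overlap, and differed by -0.50 (SE 0.17, adjusted p = 0.463). Its brightest probe set, 1434897_a_at, had 1390, 1256, 1282 and 1342 in milrinone, against 2251, 1390, 1581 and 1352 in untreated samples. There the groups overlapped, and the difference was -0.29 (95% interval -0.65 to 0.08). A further Slc25a4 probe set had no value on any array.

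Slc25a5 was read by 8 probe sets, all with values on all 8 arrays. The brightest, 1436874_x_at, had 6447, 7075, 5873 and 6084 in milrinone, against 8113, 6230, 6549 and 6175 in untreated samples, so the groups overlapped throughout. It differed by -0.08 (SE 0.10, 95% interval -0.31 to 0.15), and by 0.01 without untreated 1. The 8 probe sets ran from -0.12 to 0.26, with 5 below and 3 above 0. Of the 8, 0 reached an unadjusted p under 0.05 (limma), where 4.0% of all tested probe sets were lower and 5.62% higher. Probe sets whose identifier ends in x_at can bind similar transcripts, so Slc25a5, Slc25a4 and their close copies may share signal. Slc25a31 had 1930, 2395, 2084 and 2497 in milrinone, against 1137, 2157, 2252 and 1838 in untreated samples. The lowest value was that of untreated 1, the opposite of Slc25a4. Slc25a31 differed by 0.31 (SE 0.20, adjusted p = 0.601), and by 0.09 without untreated 1.

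The phosphate carrier Slc25a3 brings inorganic phosphate into the matrix for ATP synthesis. Its probe set 1416300_a_at had 2036, 2104, 2145 and 2618 in milrinone, against 7733, 3242, 3139 and 2409 in untreated samples. Untreated 1 was above every other array, and untreated 4 lay below milrinone 4. The difference was -0.74 (SE 0.30, 95% interval -1.39 to -0.09, adjusted p = 0.495), and -0.39 without untreated 1. The ATP-Mg/phosphate carriers adjust the adenine nucleotide pool of the matrix under control of calcium. Of their 4 genes on the array, Slc25a23 and Slc25a24 were tested. Slc25a24 was dim, at 26.6, 33.5 and 21.6 on milrinone 1, 3 and 4 and at 116, 41.4 and 30.7 on untreated 1, 2 and 4, with no value on the remaining 2 arrays, which the fit left out. It differed by -0.72 (SE 0.35, adjusted p = 0.532), and by -0.27 without untreated 1. Slc25a23 differed by -0.15, Slc25a25 had values on 1 milrinone and 2 untreated arrays, and Slc25a41 had none.

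Slc25a30, a relative of the uncoupling proteins first described in kidney, had the largest differences of the family. Its probe set 1450018_s_at had 134, 165 and 199 on milrinone 1, 3 and 4 with no value on milrinone 2, against 1458, 498, 347 and 301 in untreated samples. All 3 milrinone values lay below all 4 untreated values, and untreated 1 was the highest by far. The difference was -1.59 (SE 0.47, 95% interval -2.64 to -0.55, adjusted p = 0.460), and -1.11 without untreated 1 (adjusted p = 0.151). A second probe set of Slc25a30, 1420836_at, had 71.8, 82.2, 123 and 222 in milrinone, against 1554, 461, 204 and 337 in untreated samples, so that milrinone 4 exceeded untreated 3. It differed by -1.92 (SE 0.54, adjusted p = 0.431), and by -1.36 without untreated 1. The last tested probe set, 1420835_at, disagreed with both. It had 330, 315, 342 and 306 in milrinone, against 336, 345, 350 and 373 in untreated samples. Its groups overlapped and untreated 1 was not raised, with a difference of -0.11 (95% interval -0.40 to 0.17). The annotation used here does not say which transcripts these probe sets read, so the 3 values of Slc25a30 cannot be reduced to 1. Of 2 further probe sets, 1 had a value only on milrinone 1, at 27.3, and 1 had none. Among the other relatives, Slc25a14 had a difference of 0.06, and none of the 4 probe sets of Slc25a27 had a value.

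**Figure D3:**
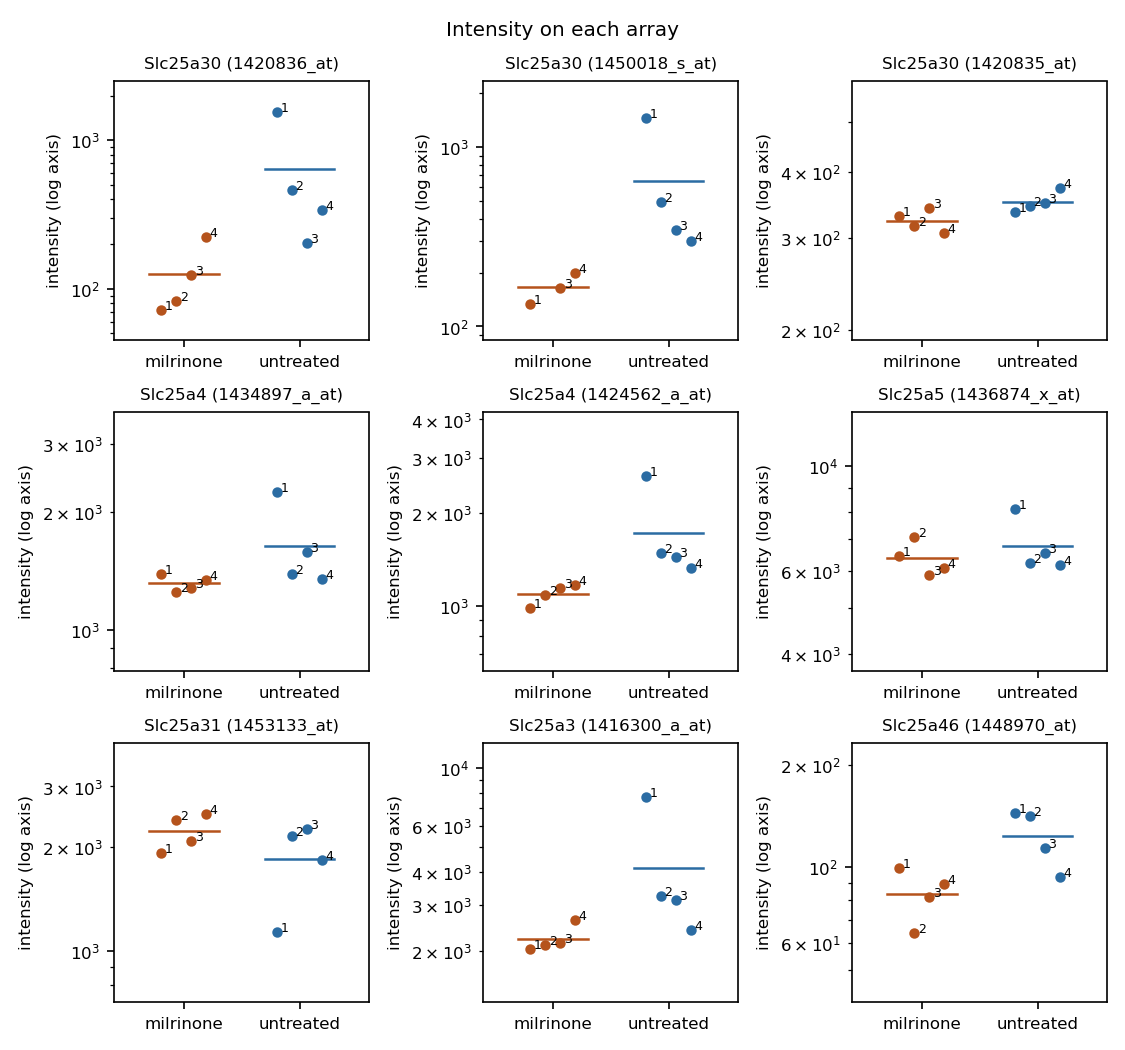
Intensity (y axis, log scale) of 9 Slc25a probe sets on each milrinone and untreated array, with points numbered by replicate and bars at the arithmetic mean of the listed values. In Slc25a3, Slc25a4, Slc25a5, Slc25a46 and 2 of 3 panels of Slc25a30 untreated 1 is the highest array, whereas in Slc25a31 it is the lowest.

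Slc25a46, a member of the outer membrane that takes part in mitochondrial shape, was read by 2 probe sets. The probe set 1448970_at had 99.1, 64.1, 81.7 and 88.9 in milrinone, against 144, 142, 114 and 93.8 in untreated samples. Only milrinone 1 overlapped the untreated range, above untreated 4. The difference was -0.48 (SE 0.17, 95% interval -0.87 to -0.10, adjusted p = 0.480), and -0.41 without untreated 1. The other probe set of Slc25a46 had no value on any milrinone array, against 240, 88.3, 82.3 and 64.4 on the untreated arrays.

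Among role groups with more than 1 tested gene, the cofactor and nucleotide carriers had the most positive median, 0.13 over 9 probe sets of 7 genes. Of the 9, 0 reached an unadjusted p under 0.05 (limma), where 4.0% of all tested probe sets were lower and 5.62% higher. Without untreated 1 that median was -0.03. Slc25a51, known in human cells as the carrier of NAD, had 712, 1117, 1193 and 713 in milrinone, against 522, 736, 942 and 514 in untreated samples. The groups overlapped, and the difference of 0.46 (SE 0.25, adjusted p = 0.551) was the largest positive one of the family. A second probe set of Slc25a51 was not tested, with no value on any milrinone array, against 771, 198 and 250 on untreated 1, 2 and 3. Slc25a32, known for transport of folate and flavin cofactors, had 755, 784, 834 and 822 with its probe set 1435483_x_at in milrinone, against 402, 698, 667 and 745 in untreated samples. All milrinone values lay above all untreated values, and the difference was 0.38 (SE 0.19, adjusted p = 0.533), or 0.18 without untreated 1. The brightest probe set of Slc25a32 averaged 1493 ± 210 in milrinone and 1294 ± 272 in untreated samples (SD, n = 4 each), and differed by 0.22. A dim probe set, 1429462_at, had 22.0, 28.3, 25.1 and 19.8 in milrinone and no value on any untreated array.

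Slc25a36, a pyrimidine nucleotide carrier, differed by -0.44, Slc25a33, another of that kind, by -0.29, and the 2 tested probe sets of Slc25a26, which carries S-adenosylmethionine, by -0.19 and -0.23. Slc25a16 and the peroxisomal carrier Slc25a17 each differed by 0.13. Slc25a42, a carrier of coenzyme A, was not tested. Its brighter probe set had 77.5 on milrinone 1 alone, against 135, 110 and 103 on untreated 1, 2 and 3.

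No carboxylate or amino acid carrier reached an unadjusted p under 0.05 in limma, where 4.0% of all tested probe sets were lower and 5.62% higher. Their role groups, the last with the acylcarnitine carrier, hold 3, 3 and 8 tested probe sets, too few for 0 to set them apart. The citrate carrier Slc25a1, the dicarboxylate carrier Slc25a10 and the oxoglutarate carrier Slc25a11 differed by -0.07, -0.43 and -0.03. Both aspartate/glutamate exchangers of the malate-aspartate shuttle were tested. Slc25a12 had 244, 305, 211 and 241 in milrinone, against 359, 249, 331 and 239 in untreated samples, and differed by -0.21 (SE 0.18, 95% interval -0.62 to 0.19). Slc25a13 had 966, 1304, 1002 and 1224 in milrinone, against 1059, 1029, 1420 and 1854 in untreated samples, with untreated 4 the highest, and differed by -0.22 (SE 0.20, 95% interval -0.66 to 0.22). The groups of both exchangers overlapped. The glutamate carrier Slc25a22 differed by 0.02, and Slc25a18, the other glutamate carrier, had values only on untreated 1 and 3, at 61.2 and 68.2.

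Slc25a20 exchanges carnitine for acylcarnitine and so admits fatty acids for oxidation. Its brighter probe set had 687, 540, 550 and 725 in milrinone, against 901, 553, 584 and 598 in untreated samples, with overlapping groups and untreated 1 the highest. Slc25a20 differed by -0.06 there (95% interval -0.47 to 0.36), by 0.10 without untreated 1, and by -0.31 with its dimmer probe set (adjusted p = 0.533). The ornithine carrier Slc25a15 differed by 0.09 and 0.17 with its 2 probe sets, the glycine carrier Slc25a38 by 0.27, and Slc25a44, a carrier of branched-chain amino acids, by -0.11 and 0.17. Slc25a29, a carrier of basic amino acids, had 107, 104, 118 and 131 in milrinone, against 184, 123 and 119 on untreated 1, 2 and 3, and differed by -0.25 (95% interval -0.67 to 0.17). Another probe set of Slc25a29 had 75.4 on milrinone 2 alone, against 126, 66.5, 79.96 and 67.9 on the untreated arrays. Slc25a2, a second ornithine carrier, had values near 14.6 on milrinone 4 and untreated 2 and none elsewhere.

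Iron enters the matrix through mitoferrins. Slc25a28, the mitoferrin of most tissues, had 736, 817, 639 and 646 in milrinone, against 1335, 869, 834 and 717 in untreated samples. The groups overlapped, untreated 1 was the highest, and the difference was -0.36 (SE 0.19, adjusted p = 0.545), or -0.18 without untreated 1. Slc25a37, the mitoferrin of developing red cells, had a single value, 68.4 on untreated 1. Slc25a39 and Slc25a40 are known in mammalian cells for import of glutathione. Slc25a40 had 400, 355, 398 and 392 in milrinone, against 443, 515 and 446 on untreated 1, 2 and 3, with no value on untreated 4. All its milrinone values lay below its untreated values, and the difference was -0.27 (SE 0.15, adjusted p = 0.564), or -0.30 without untreated 1. The 4 tested probe sets of Slc25a39 ran from -0.34 to 0.01. The brightest had 2574, 2487, 2258 and 2383 in milrinone, against 5754, 2705, 2872 and 1549 in untreated samples, so that untreated 1 and untreated 4 lay on opposite sides of the milrinone range. It differed by -0.25, and by 0.08 without untreated 1.

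Members with no role given here differed little. Slc25a35 differed by 0.08, Slc25a53 by 0.15 and the 3 probe sets of Slc25a48 by -0.12, 0.07 and 0.25. Slc25a34, Slc25a45 and Slc25a47 had 1 value each, on untreated 1, at 179, 152 and 66.2, and Slc25a54 had none.

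Whether a member had a value at all also differed between arrays. The milrinone arrays listed 57, 55, 55 and 57 of the 93 member probe sets, against 69, 63, 59 and 53 on untreated 1 to 4. As a share this was 59.14% to 61.29% in milrinone and 56.99% to 74.19% in untreated samples, beside 41.24% to 43.11% and 41.87% to 51.6% of all probe sets that are not controls. Untreated 4 listed fewer members than any milrinone array. Of the members, 48 had values on all 8 arrays, 27 on some and 18 on none, and 3 genes, Slc25a27, Slc25a41 and Slc25a54, had none on any probe set. Among the 27, 3 had values only on milrinone arrays (3.23% of the 93, against 4.55% of all probe sets that are not controls) and 14 only on untreated arrays (15.1%, against 12.0%). Of these 14, 12 had a value on untreated 1, and 6 had one on untreated 1 alone. Listing on at least 3 untreated and at most 1 milrinone arrays was found for 4 member probe sets (4.30%, against 3.12% of all), those of Slc25a29, Slc25a42, Slc25a46 and Slc25a51 described above. The reverse was found for 1, of Slc25a32 (1.08%, against 0.655% of all). Empty cells give no bound on a signal, so none of these gives a fold.

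**Figure D4:**
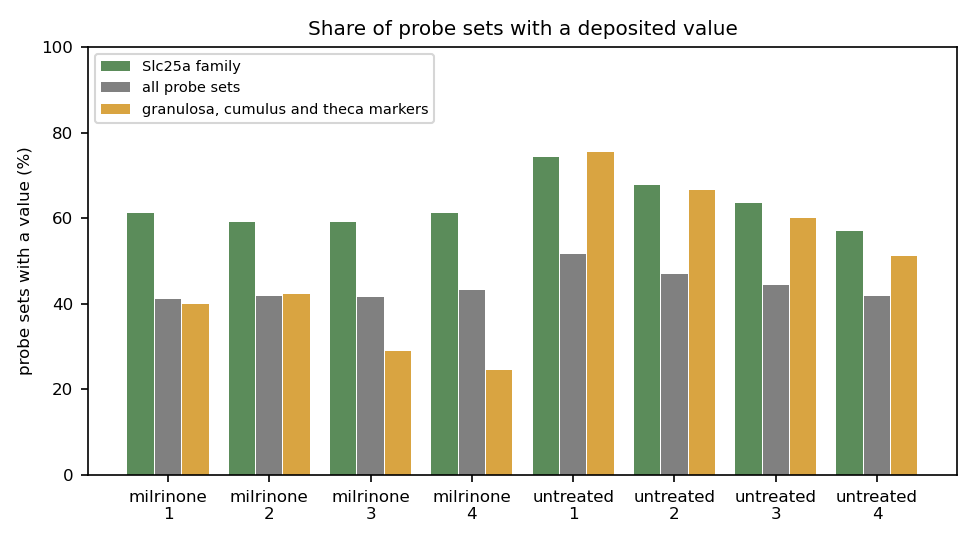
Share of probe sets with a deposited value (y axis, percent) on each milrinone and untreated array, for the 93 Slc25a probe sets, all probe sets that are not controls, and 45 probe sets of granulosa, cumulus and theca markers. Untreated 1 has the highest share in each set, and the Slc25a shares of 59.14% to 61.29% on the milrinone arrays lie above the 56.99% of untreated 4.

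Probe sets of 1 gene did not always point the same way. Of 10 genes with at least 2 tested probe sets, 6 had all of them on the same side of 0, and the others were Slc25a5, Slc25a39, Slc25a44 and Slc25a48, whose probe sets lay on both sides with intervals that include 0.

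Among genes that work beside the carriers 0 tested probe sets passed (limma), where 0.117% of all tested probe sets did. At that share lists of this size would seldom hold any, so the 0 says little about them. The machinery that imports carriers had 20 tested probe sets of 11 genes, 0 passed, 3 were lower (15%, against 4.0% of all tested probe sets) and 0 higher (against 5.62%) at an unadjusted p under 0.05 (limma), and the median was 0.03. The 3 were 2 probe sets of Tomm20, a receptor of the outer membrane, at -0.76 and -0.74 (-0.57 and -0.43 without untreated 1), and the one of Timm13, a small chaperone of the intermembrane space, at -0.34. The gene with the next smallest p was Timm8a1, another small chaperone, at 0.31, and at 0.20 with its brighter probe set. Other transporters of the mitochondrial membranes had 21 tested probe sets of 13 genes, 0 passed, 0 were lower and 1 was higher at that level (limma), against 5.62% of all tested probe sets in that direction, and the median was -0.03. The calcium uniporter Mcu had 2341, 2394, 2572 and 2567 in milrinone, against 1881, 2100, 2136 and 2067 in untreated samples, without overlap, and differed by 0.27 (SE 0.10, adjusted p = 0.480). The outer membrane channel Vdac1 differed by -0.46 (-0.28 without untreated 1) with its probe set of smallest p. With its brightest probe set Vdac1 differed by -0.17 (-0.01 without untreated 1). Sfxn4, a sideroflexin, differed by 0.62 (SE 0.40), with untreated 2 at 304 and the other untreated arrays at 941 to 1296. Family genes under other symbols had 3 tested probe sets, all below 0, with a median of -0.39 (-0.12 without untreated 1). Of the 3, 0 passed and 1 was lower at an unadjusted p under 0.05 (limma), against 4.0% of all tested probe sets in that direction. The outer membrane proteins Mtch2 and Mtch1 differed by -0.61 (adjusted p = 0.494) and -0.04 with the probe set of smallest p of each, Ucp3 had values on 4 milrinone and 2 untreated arrays, and Ucp1 had none.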

How the data were processed

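The deposited table gives 1 intensity per probe set and array on a linear scale, made by the authors from scanned arrays. Per the labels, each array received 15 µg of biotin-labelled cRNA, so levels are relative ones. The sources used here do not name the software, the scaling target or the rule behind empty cells. The deposited scaling was kept and empty cells were left empty. The number of arrays limits the precision. Probe sets were named from the platform annotation, and all 44 member genes matched the RefSeq gene table by Entrez identifier without a change of symbol. Of 45037 probe sets that are not controls, 34945 have 1 gene symbol, 932 several and 9160 none. Control probe sets were left out of the test, and 1 probe set naming Slc25a37 among several symbols had no value on any array.

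Intensities were analysed as log2(intensity + 16) in R 4.3.3 by limma 3.58.1 with an intensity trend, as two-sided tests fitted on all 16288 probe sets with values on at least 3 arrays per group, with Benjamini-Hochberg adjustment over all of them. The fit was tested on simulated data with independent noise and no array that stood apart. That test therefore does not cover an array such as untreated 1. Tables and plots were made in Python 3.11.15 with pandas 2.3.3 and matplotlib 3.10.9. Values per array are given for members that pass, for up to 8 whose groups do not overlap, ranked by size of change in their brightest probe set, for those listed mainly in 1 group and for Slc25a3, Slc25a4, Slc25a5, Slc25a31, Slc25a12, Slc25a13, Slc25a20, Slc25a24, Slc25a28, Slc25a37 and Slc25a46. Second probe sets and Slc25a39 were added after their values were seen. Of other lists up to 3 genes with the smallest p are named. Members, lists and rules were chosen with earlier results of these data known. A set of 19 alternatives was run.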

Additional observations from a re-analysis of the deposited data

Results flagged for a closer look

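Groups of 4 arrays in which 1 array lay far from the other 3 were sought in 103 groups of member values, where chance gives about 1 in 20, or 5.15, and 5 were found. The number in parentheses is the gap of that array to its nearest neighbour over the range of the group on the log2 scale. Untreated 1 was the highest for 2 probe sets of Slc25a4 (0.833 and 0.840) and for the brighter probe set of Slc25a20 (0.842). Milrinone 2 was the lowest for Slc25a40 (0.837), and milrinone 4 was the lowest for the brighter probe set of Slc25a44 (0.947).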

How the results depend on the processing

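Taking 1 tested probe set per named carrier, the brightest, none passed the limma threshold under the 19 alternatives, with a lowest adjusted p of 0.0746, under array weights, and 273 of 281 such results kept their direction. Some alternatives cannot move the estimate of a probe set with values on all 8 arrays, so part of this count was fixed in advance. These were the listing filters, empty cells at 0, the replicate block and the fit without an intensity trend. The 8 that turned were Slc25a5 (0.0807 centred on ribosomal protein genes and 0.0086 without untreated 1), Slc25a20 (0.11 with that centring, 0.03 with array weights, 0.01 without milrinone 2 and 0.10 without untreated 1), and Slc25a29 (0.57) and Slc25a40 (0.96) with empty cells at 0. With empty cells at 0 and no filter 1 member passed, the dim probe set of Slc25a32 with no untreated value (1.31, adjusted p = 0.00925), which that setting builds from its empty cells. Members at an unadjusted p under 0.05 (limma) then numbered 10, and 16 with quantile normalization. The share of all probe sets at that level was not counted for these settings, so 10 and 16 have no background. When single arrays were left out, 4 to 13 members lay under that level (limma). In those fits 2.7% to 6.38% of all tested probe sets were lower and 3.25% to 7.32% higher. The members' median became -0.29 with quantile normalization, beside -0.13 for all tested probe sets. Centred on ribosomal protein genes it was 0.0754, beside 0.23. It ran from -0.12 to -0.03 when single arrays were left out, and the members' median minus that of all tested probe sets was -0.16, -0.16 with quantile normalization, -0.15 with ribosomal centring and -0.05 without untreated 1. The cause was not tested. All changed probe sets numbered 19, and 12 when listed on all 8 arrays, 54 with ribosomal centring, 106 with array weights and 9 (without milrinone 3) to 69 (without untreated 1) when single arrays were left out, with 0 members among them in each. The mean number of listed members, milrinone minus untreated, was -5 and ran from -7.67 (without untreated 4) to -2.33 (without untreated 1). No pairing by replicate number was seen. In their deviations from the group mean, arrays of the same number correlated at -0.27 to 0.03, and 0 of 8 correlated best with their own number. With 4 arrays per group and untreated 1 standing apart, this cannot show that the samples were collected unpaired. With the replicate number as a block, 0 members and 13 of all probe sets passed, and the members' median was -0.10. In that fit 9 members lay under an unadjusted p of 0.05 (limma), with the share of all probe sets not counted.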
